A study of Mus musculus with 6 samples.

Results

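The 45 genes described here encode proteins of the kinetochore and of the spindle checkpoint, together with the anaphase regulators that the checkpoint acts on. They were taken by gene symbol from a fixed list, which was chosen with earlier results of these data known. All 45 were found among the 54532 genes of the deposited table, and all 45 passed the filter on low values. The RNA came from whole testis of mice on postnatal day 9, with 3 wild-type libraries and 3 libraries of Ppp6r3 cKO, a conditional knockout of Ppp6r3, the gene of a subunit that regulates protein phosphatase 6. The Cre line, the deleted exons, the genotype of the wild-type mice beyond that name and any pooling of animals are not given in the sources used here. Whether each sample was a different animal is also not stated. The p-values therefore reflect only how far these samples vary, and that variation may be technical. In RNA of whole testis, fewer cells of a type and less RNA per cell cannot be told apart.

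The kinetochore is the protein assembly that joins a chromosome to spindle microtubules. It rests on centromeric chromatin marked by the histone variant CENP-A and on the constitutive centromere-associated network (CCAN), and it reaches the microtubule through the KNL1, MIS12 and NDC80 complexes (the KMN network). Kinetochores without microtubules recruit the kinases MPS1 and BUB1 and the MAD and BUB proteins. These hold back CDC20, the activator of the anaphase-promoting complex (APC/C), until every chromosome is attached. In the juvenile testis, dividing spermatogonia and Sertoli cells carry out mitosis while the first germ cells enter meiosis. Protein phosphatase 6 is known in dividing cells for restraining the mitotic kinase Aurora A.

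Promoters of genes expressed in mitosis often hold a cell cycle gene homology region (CHR) near the start site and CCAAT boxes before it. The windows printed here run from 250 bases before to 50 bases after a RefSeq start site (RefSeq, build GRCm38.p6), 5′ to 3′ on the strand of the gene. They are shown for the related genes Bub1 and Bub1b, for Spc25 and Ndc80 of the NDC80 complex, for Oip5, one of the members with the largest falls, and for Fzr1, which rose. Capitals mark matches to the CHR form TTTGAA, to its variants with the letters TTTAAA and those with TTCGAA, and to the box CCAAT. Each was searched on both strands, and no matches share bases in these windows.
Bub1, chr2:127831810-127832109, minus strand: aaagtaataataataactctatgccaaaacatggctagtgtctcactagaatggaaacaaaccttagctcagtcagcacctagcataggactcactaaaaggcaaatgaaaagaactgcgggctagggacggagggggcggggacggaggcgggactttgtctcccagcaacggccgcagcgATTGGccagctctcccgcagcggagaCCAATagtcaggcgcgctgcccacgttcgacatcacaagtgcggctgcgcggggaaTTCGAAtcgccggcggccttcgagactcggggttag
Bub1b, chr2:118597961-118598260, plus strand: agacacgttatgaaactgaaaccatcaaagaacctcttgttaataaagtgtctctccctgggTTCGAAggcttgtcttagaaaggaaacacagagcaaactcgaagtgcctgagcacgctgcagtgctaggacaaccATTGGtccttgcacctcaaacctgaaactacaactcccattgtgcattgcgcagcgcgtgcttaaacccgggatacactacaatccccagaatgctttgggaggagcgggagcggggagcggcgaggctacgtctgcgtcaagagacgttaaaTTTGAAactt
Spc25, chr2:69206164-69206463, minus strand: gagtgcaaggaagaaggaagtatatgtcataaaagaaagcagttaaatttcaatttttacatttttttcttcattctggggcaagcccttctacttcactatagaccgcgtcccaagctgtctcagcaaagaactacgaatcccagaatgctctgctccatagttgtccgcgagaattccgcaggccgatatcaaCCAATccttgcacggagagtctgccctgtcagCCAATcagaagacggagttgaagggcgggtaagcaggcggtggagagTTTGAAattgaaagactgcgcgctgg
Ndc80, chr17:71526808-71527107, minus strand: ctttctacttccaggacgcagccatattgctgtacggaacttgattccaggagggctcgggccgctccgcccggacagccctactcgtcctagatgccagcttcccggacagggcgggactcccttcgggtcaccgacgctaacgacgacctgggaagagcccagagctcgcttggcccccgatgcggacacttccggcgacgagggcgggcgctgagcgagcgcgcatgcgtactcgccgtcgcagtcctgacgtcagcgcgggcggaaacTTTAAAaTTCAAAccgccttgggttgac
Oip5, chr2:119618456-119618755, minus strand: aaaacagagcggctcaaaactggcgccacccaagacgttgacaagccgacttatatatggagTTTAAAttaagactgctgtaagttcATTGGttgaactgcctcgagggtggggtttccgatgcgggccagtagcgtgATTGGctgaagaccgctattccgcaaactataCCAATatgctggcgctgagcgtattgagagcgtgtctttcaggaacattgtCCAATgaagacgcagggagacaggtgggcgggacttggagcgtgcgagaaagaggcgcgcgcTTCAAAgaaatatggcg
Fzr1, chr10:81378321-81378620, minus strand: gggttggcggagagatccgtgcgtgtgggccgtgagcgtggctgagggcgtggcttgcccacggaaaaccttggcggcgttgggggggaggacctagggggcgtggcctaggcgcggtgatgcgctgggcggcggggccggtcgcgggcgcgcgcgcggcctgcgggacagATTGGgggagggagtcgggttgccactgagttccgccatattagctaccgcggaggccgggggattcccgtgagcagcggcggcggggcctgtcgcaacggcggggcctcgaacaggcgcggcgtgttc

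In the Bub1 window the variant TTCGAA lay at bases 15 to 20 after the start, behind CCAAT boxes at -68 to -64 and -42 to -38. Spc25 held the form TTTGAA at bases 25 to 30 and CCAAT boxes at -55 to -51 and -23 to -19. Bub1b, which did not pass, held TTTGAA at bases 41 to 46, TTCGAA at -188 to -183 and 1 CCAAT box. The Ndc80 window had CHR letters and no CCAAT box, and the Fzr1 window had a CCAAT box and no CHR letters. Windows were found for 41 of the 45 members. CHR letters stood in 27 of them (65.9%), against 31.9% of all 27025 genes with a window, and CCAAT stood in 30 (73.2%), against 41.1%. The E2F letters TTCCCGC, or else the form TTGGCGC, stood in 10 (24.4%), against 7.79%. Of the 13 members with a window that fell, 9 held CHR letters (69.2%), as did 18 of the other 28 (64.3%). CCAAT stood in 11 of the 13 (84.6%) and in 19 of the other 28 (67.9%). The E2F letters stood in 5 (38.5%) and 5 (17.9%), and CHR letters together with CCAAT in 9 (69.2%) and 13 (46.4%). These shares describe letters in a window and were not tested.

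Levels are deposited FPKM values (fragments scaled by exon length and by the depth of the library), tested as log2(FPKM + 0.1) with limma, 2-sided, with p-values adjusted by Benjamini-Hochberg over 17672 genes. Fold changes are Ppp6r3 cKO minus wild type on that log2 scale, and a gene passed at an adjusted p under 0.05. The spacing of the values gave 15970908 to 16606868 fragments per library, and a member rested on 92 to 5337 fragments in a library. Ppp6r3 itself went from 21.02 ± 0.257 to 15.4 ± 0.458 FPKM (SD, n = 3 each), a log2 fold change of -0.45 (SE 0.042, limma adjusted p = 0.000698). Defining markers of the germ cells, Sertoli cells and Leydig cells of testis were present: Ddx4 stood at 53.3, Sox9 at 38.5 and Cyp11a1 at 19.3 FPKM in wild type. Ppp6r3 cKO replicate 1 stood apart by GC content. Its median deviation from the mean of all libraries ran from -0.112 in the lowest of 10 GC bins to 0.126 in the highest. The median GC content of the members was 45.9%, against 50.1% for all genes tested.

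Some of the listed genes of each kinetochore layer, and 2 of the checkpoint, fell in Ppp6r3 cKO testis. In some layers this was only 1 gene. Of the 45, 15 fell (33.3%), 1 rose and 29 did not pass, while 7.83% of all genes tested fell and 7.65% rose. The members that fell were Bub1, Mad1l1, Oip5, Cenpm, Cenpn, Cenpq, Spc24, Spc25, Dsn1, Pmf1, Ska2, Spag5, Zwilch, Cenpf and Mki67, and the member that rose was Fzr1. Their changes were modest: the deepest fall was -0.55 on the log2 scale, and 12 of the 15 fell by at least 0.25. Over all genes tested, 1021 of the 1384 that fell did so by at least 0.25, a similar share. The median over all 45 was -0.13, against 0.003 for all genes tested. Of the 45, 35 were below 0 (77.8%), against 49.5% of all genes tested. The groups did not overlap in 26 members, with Ppp6r3 cKO on the lower side in 21 and on the higher side in 5. Over all genes tested those shares were 18.2% and 18.8%. The summed level of the 45 was 560.1 to 566.6 FPKM in wild type and 526.7 to 538.0 FPKM in Ppp6r3 cKO.

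**Figure D1:**
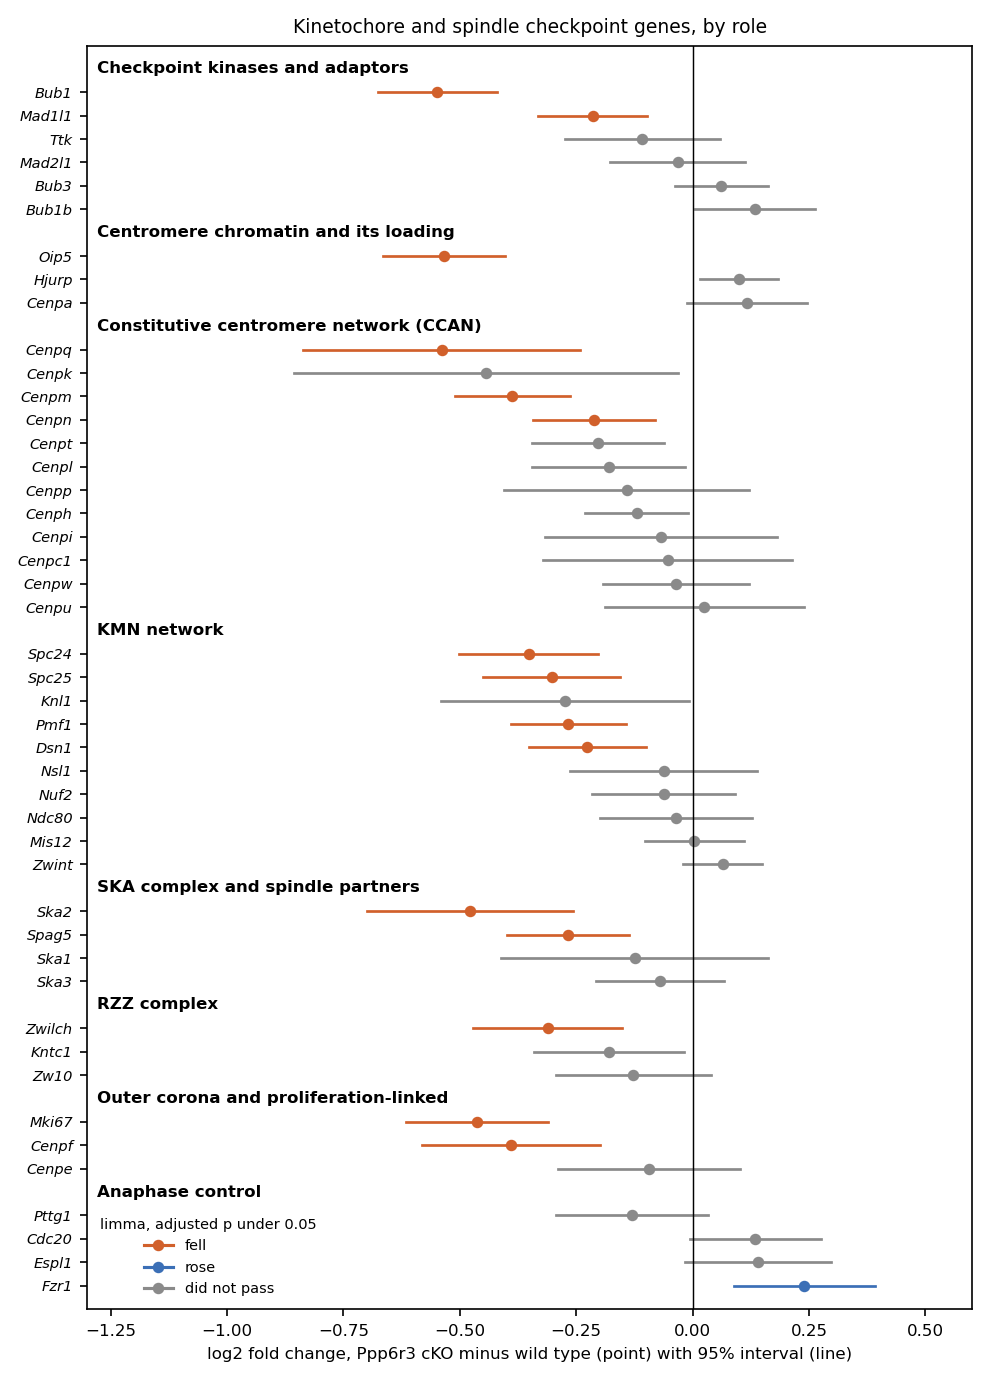
Log2 fold change (x axis, Ppp6r3 cKO minus wild type) of each of the 45 genes, grouped by role, with points for the limma estimate and lines for its 95% interval. The 15 genes that fell lie between -0.55 and -0.21, Fzr1 stands at 0.24 as the only gene that rose, and the intervals of most others span 0.

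The count of falls depended on the libraries and the filter. It was 6 with no filter on low values, 6 without wild-type replicate 2 and 9 without wild-type replicate 3, and leaving out any of the other libraries gave 10 to 13. With no filter on low values the calls of Mad1l1, Cenpn, Cenpq, Spc25, Dsn1, Ska2, Spag5, Zwilch and Cenpf were lost. Bub1, Oip5, Cenpm and Mki67 passed under all 17 alternatives, and Spc24 under all but the threshold of 0.01. At that threshold 4 of the 45 fell, and 471 of all 17672 genes tested. Without Ppp6r3 cKO replicate 1 the count among the 45 was 11 and the median -0.105. After correction for GC content and length the count was 14 and the median -0.078. Over all genes 1572 of 17660 then fell, and the median was 0.017. With voom on the recovered fragments 19 fell.

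Among the checkpoint kinases and their partners, Bub1 and Mad1l1 fell, and Bub1b, a close relative of Bub1, did not pass. BUB1 is the kinase that phosphorylates histone H2A at the centromere and scaffolds the checkpoint proteins. Bub1 (chromosome 2, 127801122 to 127831865, minus strand, GENCODE M21 on mm10) stood at 20.4, 19.99 and 20.7 FPKM in the wild-type libraries and at 12.96, 14.8 and 13.9 FPKM in the Ppp6r3 cKO libraries. The groups were far apart, with the Ppp6r3 cKO mean at 0.683 of the wild-type mean. The log2 fold change was -0.55 (SE 0.055, limma adjusted p = 0.00104), and without any single library Bub1 still passed. Bub1b encodes BUBR1, a part of the mitotic checkpoint complex that binds CDC20. It stood at 22.9, 20.8 and 23.6 FPKM in wild type and 23.7, 24.97 and 25.2 FPKM in Ppp6r3 cKO. The groups did not overlap, in the direction opposite to Bub1, but Bub1b did not pass (log2 fold change 0.13, 95% interval 0.005 to 0.262, limma adjusted p = 0.145). The ratio of Bub1 to Bub1b went from 0.89, 0.96 and 0.875 to 0.547, 0.594 and 0.553.

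Bub3, the WD40 protein that binds both BUB kinases, had a log2 fold change of 0.06 (95% interval -0.038 to 0.162). Its groups did not overlap, with Ppp6r3 cKO on the higher side, and it did not pass. Mad2l1, which encodes MAD2, was at -0.03 (95% interval -0.177 to 0.113), and turned to 0.002 without wild-type replicate 1 and to 0.01 without Ppp6r3 cKO replicate 1. Mad1l1, which encodes MAD1, the kinetochore anchor of MAD2, fell from 9.80, 9.70 and 9.11 to 8.26, 8.32 and 8.03 FPKM (log2 fold change -0.21, limma adjusted p = 0.0276). The Mad1l1 groups did not overlap, but the call was lost without any 1 of wild-type replicates 1 and 2 and Ppp6r3 cKO replicates 2 and 3, with adjusted p up to 0.0984 over the alternatives. Ttk, which encodes MPS1, the kinase that starts checkpoint signalling, was at -0.11 and did not pass.

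At centromeric chromatin, the gene of a loading factor fell, and those of the histone and its chaperone did not pass. Oip5 encodes MIS18-beta, part of the complex that licenses centromeres for new CENP-A. Oip5 (chromosome 2, 119609512 to 119618469, minus strand) stood at 11.4, 12.1 and 12.5 FPKM in wild type and 7.99, 8.69 and 8.09 FPKM in Ppp6r3 cKO. No Ppp6r3 cKO library came near the lowest wild-type library, and the log2 fold change was -0.53 (SE 0.057, limma adjusted p = 0.00138). Of the exon bases of Oip5, 9.7% overlap Nusap1 on the opposite strand. Hjurp, the chaperone that deposits CENP-A, stood at 36.6, 35.5 and 36.7 FPKM in wild type and 39.1, 38.2 and 39.3 FPKM in Ppp6r3 cKO, and Cenpa had means of 14.6 and 15.8 FPKM. Both had non-overlapping groups on the higher side and did not pass (log2 fold changes 0.10 and 0.12, limma adjusted p = 0.103 and 0.197). The ratio of Oip5 to Hjurp fell from between 0.311 and 0.342 to between 0.205 and 0.228.

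Of the 12 CCAN genes, whose products form the inner kinetochore, 3 fell, none rose and 9 did not pass, and 11 were below 0. Their median was -0.16, and their summed level went from 82.1 to 85.9 FPKM in wild type down to 70.9 to 73.4 FPKM in Ppp6r3 cKO. Cenpm, a small subunit of the group of CENP-H, CENP-I and CENP-K, stood at 10.8, 10.2 and 11.2 FPKM in wild type and 8.22, 7.93 and 8.39 FPKM in Ppp6r3 cKO. These groups were well apart (log2 fold change -0.39, SE 0.054, limma adjusted p = 0.00381). Cenpm lies on chromosome 15, 82233779 to 82244748, minus strand.

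Cenpq, of the group that contains CENP-O, CENP-P and CENP-U, stood at 5.06, 6.57 and 6.13 FPKM in wild type and 3.61, 3.77 and 4.78 FPKM in Ppp6r3 cKO. The groups lay apart by a narrow gap (log2 fold change -0.54, SE 0.13, limma adjusted p = 0.0282). Its call was lost without any 1 of wild-type replicates 2 and 3 and Ppp6r3 cKO replicates 1 and 2, with adjusted p up to 0.0932. Cenpn, which reads CENP-A nucleosomes, had means of 11.1 and 9.58 FPKM (log2 fold change -0.21, limma adjusted p = 0.041). The Cenpn call held only when Ppp6r3 cKO replicate 2 was the library left out, and was lost with the replicate block, with no low-value filter and after the GC and length correction (-0.16, adjusted p = 0.0674). Over the alternatives its adjusted p reached 0.132.

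Cenpk, Cenpl, Cenph and Cenpt also had non-overlapping groups, lower in Ppp6r3 cKO, and did not pass. Their log2 fold changes were -0.44, -0.18, -0.12 and -0.20. Cenpt, which bridges the CCAN to the NDC80 complex, was nearest the threshold (limma adjusted p = 0.0602) and passed after the GC and length correction and with voom. Cenpk was the lowest of all 45 genes, with means of 1.87 and 1.35 FPKM. Cenpc1, Cenpi, Cenpp, Cenpu and Cenpw lay between -0.14 and 0.03, with overlapping groups. Of these, Cenpc1, Cenpi, Cenpu and Cenpw changed sign under at least 1 alternative.

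In the KMN network, 4 of 10 genes fell, Spc24, Spc25, Dsn1 and Pmf1. The NDC80 complex is a rod whose outer pair, NDC80 and NUF2, grips the microtubule and whose inner pair, SPC24 and SPC25, docks on the MIS12 complex and CENP-T. Spc24 stood at 13.2, 14.2 and 12.8 FPKM in wild type and 11.1, 9.70 and 10.7 FPKM in Ppp6r3 cKO (log2 fold change -0.35, SE 0.065, limma adjusted p = 0.0109). Spc25 stood at 13.01, 13.2 and 13.6 FPKM and at 9.78, 11.5 and 11.001 FPKM (log2 fold change -0.30, SE 0.064, limma adjusted p = 0.0181). Neither gene had overlapping groups. Spc24 passed without each single library, and the Spc25 call was lost without wild-type replicate 2 or 3 (adjusted p up to 0.0666).

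Neither gene of the outer pair passed. Ndc80 stood at 5.77, 5.48 and 5.05 FPKM in wild type and 5.03, 5.46 and 5.38 FPKM in Ppp6r3 cKO (log2 fold change -0.04, 95% interval -0.2 to 0.128), and the sign turned without wild-type replicate 1 (0.007). Nuf2 was at -0.06 (95% interval -0.216 to 0.091). The inner pair was the more abundant per exon length in both groups, and the ratio of Spc24 to Ndc80 went from 2.28, 2.6 and 2.54 to 2.21, 1.78 and 1.99.

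In the MIS12 complex, the hub of the outer kinetochore, Dsn1 and Pmf1 fell. Dsn1 stood at 18.2, 19.9 and 17.8 FPKM in wild type and 15.7, 16.5 and 15.5 FPKM in Ppp6r3 cKO (log2 fold change -0.23, limma adjusted p = 0.0286). Pmf1 stood at 18.6, 18.0 and 17.9 FPKM and at 16.0, 15.2 and 14.2 FPKM (log2 fold change -0.27, limma adjusted p = 0.0148). The groups of both genes lay apart. The Dsn1 call was lost after the GC and length correction and without any 1 of wild-type replicates 1 and 2 and Ppp6r3 cKO replicates 1 and 3 (adjusted p up to 0.0916), and the Pmf1 call without wild-type replicate 1 or 2 (up to 0.0522). Mis12 (0.004, 95% interval -0.103 to 0.11) and Nsl1 (-0.06) did not pass, and Mis12 changed sign under 3 alternatives.

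Knl1, the large scaffold that BUB1 and BUBR1 dock on, was low, at 3.05, 2.80 and 3.34 FPKM in wild type and 2.17, 2.71 and 2.68 FPKM in Ppp6r3 cKO. Its groups did not overlap and it did not pass (log2 fold change -0.27, limma adjusted p = 0.15). Zwint, which tethers the RZZ complex to KNL1, was the second most abundant of the 45, with means of 48.1 and 50.4 FPKM, and did not pass.

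**Figure D2:**
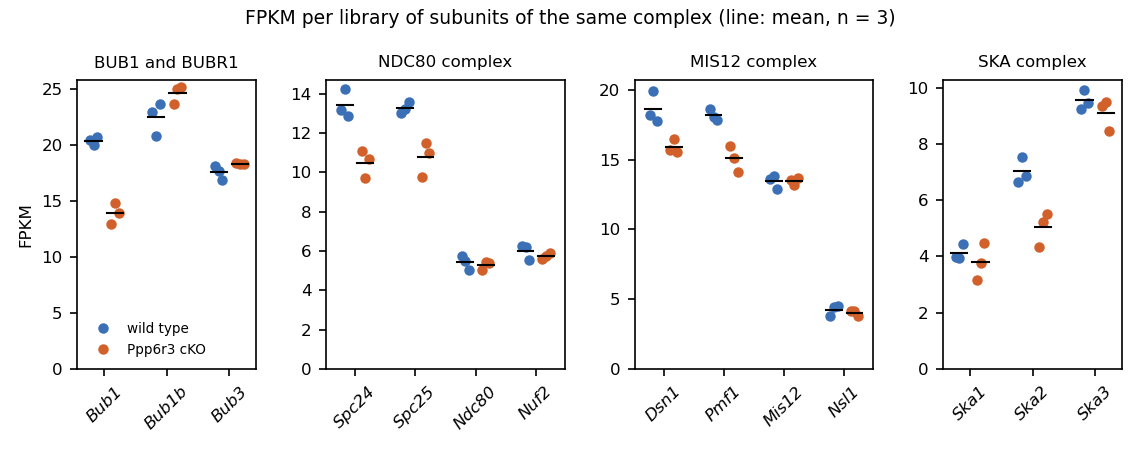
FPKM (y axis) of subunits of 4 protein groups in each library, with wild type and Ppp6r3 cKO as separate colours and a line at each mean of 3. Bub1, Spc24, Spc25, Dsn1, Pmf1 and Ska2 lie lower in all 3 Ppp6r3 cKO libraries, and Bub1b and Bub3 lie higher in all 3. The groups of Ndc80, Nuf2, Mis12, Nsl1, Ska1 and Ska3 overlap.

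Whether partners moved unequally was examined on the log2 ratio within each library for 8 pairs, which were picked after the values had been seen. The difference between groups was -0.69 (SE 0.055) for Bub1 over Bub1b, -0.64 (SE 0.067) for Oip5 over Hjurp, -0.32 (SE 0.11) for Spc24 over Ndc80 and -0.24 (SE 0.092) for Spc25 over Nuf2. It was -0.23 (SE 0.054) for Dsn1 over Mis12, -0.27 (SE 0.065) for Pmf1 over Mis12 and -0.41 (SE 0.14) for Ska2 over Ska3. In these 7 pairs the groups did not overlap, and the exact 2-sided permutation test gave p = 0.1 for each, the smallest p that 3 against 3 libraries allow (0.114 after Benjamini-Hochberg adjustment over the 8 pairs). This test could not pass a threshold of 0.05 with these libraries, whatever the values were. The pairs were also picked from the same values, so the ratios are a description and do not show that partners differ. For Cdc20 over Fzr1 the difference was -0.11 (SE 0.083, exact permutation p = 0.3).

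The SKA complex helps kinetochores hold on to shrinking microtubules. Of its genes Ska2 fell, from 6.64, 7.55 and 6.87 to 4.34, 5.24 and 5.51 FPKM (log2 fold change -0.48, SE 0.096, limma adjusted p = 0.0151). The groups lay apart, and the call was lost without wild-type replicate 2 (adjusted p up to 0.0587). Of the exon bases of Ska2, 10.1% overlap Gm11491 on the opposite strand, the largest such share among the members that fell. Ska1 (-0.12) and Ska3 (-0.07) had overlapping groups and did not pass, and Ska3 turned to 0.008 after the GC and length correction. Spag5, which encodes astrin, a spindle protein of attached kinetochores, fell from 9.74, 10.3 and 10.9 to 8.37, 8.38 and 8.87 FPKM (log2 fold change -0.27, limma adjusted p = 0.0185). Its call was lost without any 1 of wild-type replicates 2 and 3 and Ppp6r3 cKO replicate 2 (adjusted p up to 0.0692).

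The RZZ complex brings the motor dynein and MAD1 to kinetochores. Zwilch fell from 10.4, 11.02 and 11.4 to 8.32, 8.47 and 9.69 FPKM (log2 fold change -0.31, limma adjusted p = 0.0217), with the groups apart. That call was lost without any 1 of wild-type replicates 2 and 3 and Ppp6r3 cKO replicates 1 and 2 (adjusted p up to 0.0787). Kntc1, which encodes ROD, had non-overlapping groups with means of 7.36 and 6.495 FPKM (log2 fold change -0.18, limma adjusted p = 0.121), and Zw10 was at -0.13. Neither passed, and Kntc1 passed with voom.

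Of the large proteins of mitotic chromosomes and the fibrous corona, Mki67 and Cenpf fell and Cenpe did not pass. Mki67 encodes Ki-67, which coats mitotic chromosomes and is widely used as a marker of proliferating cells. Mki67 (chromosome 7, 135689784 to 135716361, minus strand) stood at 8.43, 8.55 and 9.70 FPKM in wild type and 6.35, 6.61 and 6.28 FPKM in Ppp6r3 cKO. The Ppp6r3 cKO libraries lay close together and below the lowest wild-type library (log2 fold change -0.46, SE 0.067, limma adjusted p = 0.00427). Cenpf stood at 4.97, 4.76 and 5.28 FPKM and at 3.44, 4.03 and 3.93 FPKM (log2 fold change -0.39, limma adjusted p = 0.0184). The Cenpf call was lost without wild-type replicate 1 or 3 (adjusted p up to 0.0711). Cenpe, the kinesin that carries chromosomes to the spindle equator, was at -0.09.

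Of the 4 genes of anaphase control, 1 rose and 3 did not pass. Fzr1 encodes CDH1, the APC/C activator of late mitosis and of the G1 phase. It stood at 18.0, 17.6 and 16.8 FPKM in wild type and 22.8, 19.7 and 19.6 FPKM in Ppp6r3 cKO, with the highest value in the library that stood apart by GC content. The groups did not overlap (log2 fold change 0.24, SE 0.066, limma adjusted p = 0.0434). The exons of Fzr1 are 59.9% GC, and the value was 0.16 after the GC and length correction (adjusted p = 0.0367) and 0.17 without Ppp6r3 cKO replicate 1 (adjusted p = 0.0506). The call held only when Ppp6r3 cKO replicate 3 was the library left out, and was lost without any of the other 5 (adjusted p up to 0.132 over the alternatives).

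Cdc20, the target of the checkpoint, was the most abundant of the 45, at 56.8, 51.8 and 54.8 FPKM in wild type and 62.1, 62.8 and 54.8 FPKM in Ppp6r3 cKO. Its groups overlapped (log2 fold change 0.13, limma adjusted p = 0.175). Espl1, which encodes separase, was at 0.14, and Pttg1, which encodes its inhibitor securin, at -0.13, and neither passed. In all 3 genes Ppp6r3 cKO replicate 3 stood apart from the other Ppp6r3 cKO libraries. Without it Cdc20 and Espl1 passed as higher (log2 fold changes 0.20 and 0.22) and Pttg1 passed as lower (-0.21).

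**Figure D3:**
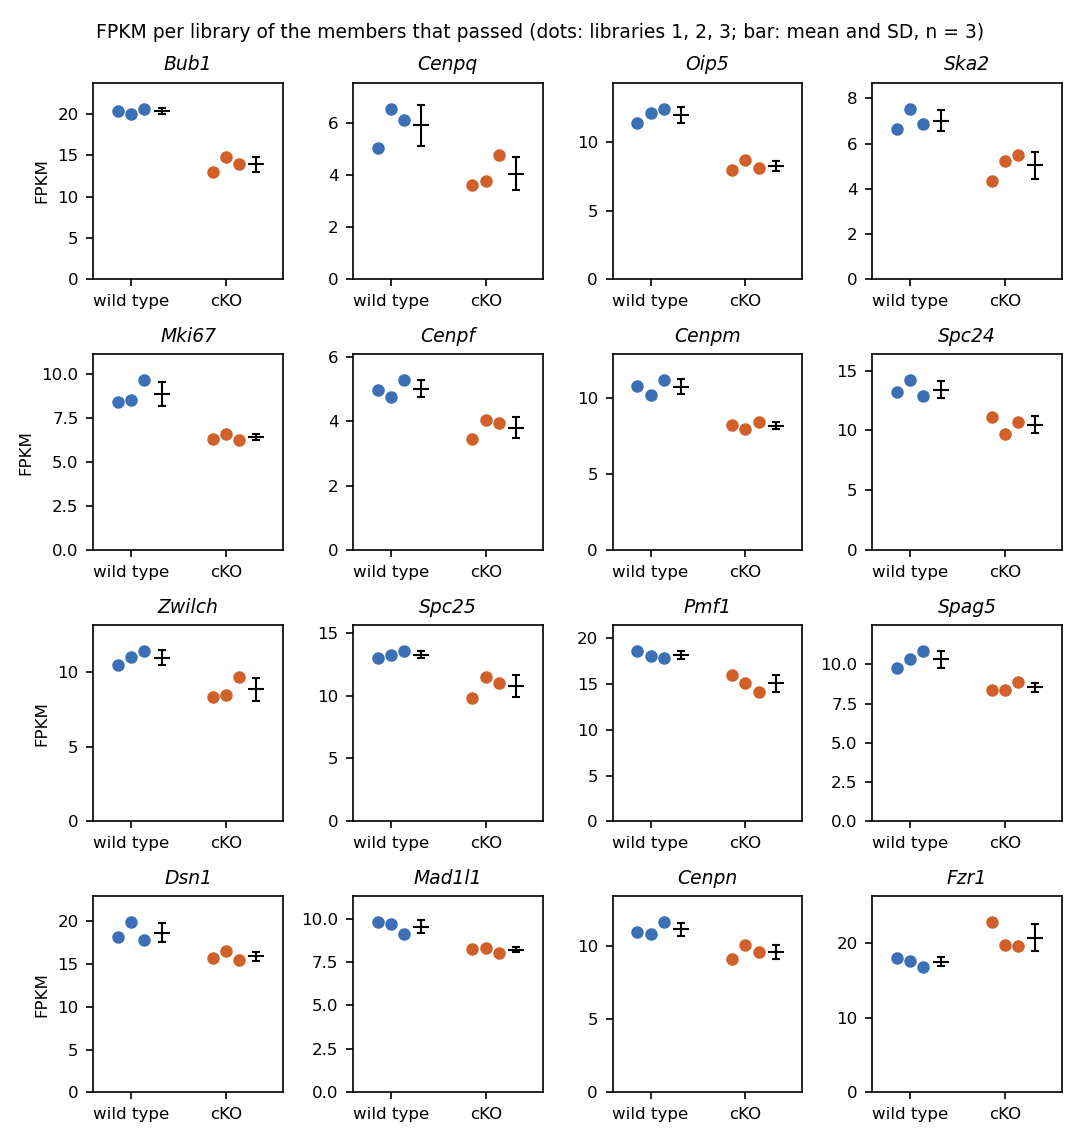
FPKM (y axis, from 0) of the 16 genes that passed, with a dot for each library and a bar for the mean and SD of 3 libraries. In every panel the 3 Ppp6r3 cKO dots lie on one side of the 3 wild-type dots, below them for 15 genes and above them for Fzr1.

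Among other genes of the same machinery, the share that fell was near that of all genes. Among 52 further centromere, checkpoint and APC/C genes the median was -0.008, and 46 did not pass. The share that fell was 7.69% (4 genes), and 2 rose (3.85%), against 7.83% and 7.65% of all genes tested. Their groups did not overlap in 19, with Ppp6r3 cKO lower in 11 and higher in 8. Over all genes tested, Ppp6r3 cKO was on the lower side without overlap in 18.2% and on the higher side in 18.8%. Anapc5, a scaffold subunit of the APC/C, had means of 92.2 ± 1.33 in wild type and 78.4 ± 1.85 in Ppp6r3 cKO (FPKM ± SD of 3). Its log2 fold change was -0.23 (limma adjusted p = 0.00527), and it passed under every alternative. Of the 17 APC/C genes it was the only one that passed. Cenpb, which binds a motif in centromeric repeats, rose from 42.4 ± 1.13 to 50.3 ± 2.39 FPKM (log2 fold change 0.25, limma adjusted p = 0.0113).

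Cyclin B1 (Ccnb1) rose by 0.17 on the log2 scale, Cenps was at -0.22 and fell, and Ckap5, which encodes a microtubule polymerase, was at -0.17 and fell. Leaving out any 1 of the 6 libraries removed the Ckap5 call, and the Ccnb1 and Cenps calls were each lost without 4 of them. Meikin, a meiosis-specific kinetochore gene, rested on 24, 18 and 14 fragments in wild type and 11, 3 and 3 in Ppp6r3 cKO. Its groups lay apart (log2 fold change -1.48, limma adjusted p = 0.0305, or -0.51 with a pseudocount of 1), and its call held only when Ppp6r3 cKO replicate 1 was the library left out. The mitotic kinase genes Aurkb (0.14) and Plk1 (0.19) and the centromeric cohesion protector Sgo2a (-0.11) did not pass, and Plk1 passed as higher without Ppp6r3 cKO replicate 2. The 25 DNA replication genes had a median of -0.047. Of them 7 fell (28.0%) and 2 rose (8.0%), against 7.83% and 7.65% of all genes tested. Only 4 fell without wild-type replicate 2 or without wild-type replicate 3, and 3 with no low-value filter. The count that rose was 1 without any 1 of the wild-type replicates or Ppp6r3 cKO replicate 2. Among them Prim1 (-0.37) and Pole (-0.36), which encode a primase and a polymerase subunit, fell, and Rrm2, of ribonucleotide reductase, fell (-0.34). No test compared the lists with each other.

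Markers of germ cell stages and of other cell types moved in the same libraries. The calls below stand against 7.83% of all genes tested that fell and 7.65% that rose. All 15 genes listed for meiotic entry and prophase fell, and their summed level was 404 to 413.8 FPKM in wild type and 201.1 to 207.6 FPKM in Ppp6r3 cKO. Stra8, which starts the meiotic program, fell from 129.9 ± 2.23 to 51.4 ± 2.37 FPKM (SD, n = 3 each). The 9 general germ cell genes summed to 488.7 to 504.5 FPKM in wild type and 387.6 to 420.7 FPKM in Ppp6r3 cKO, and Ddx4 was at -0.16 (not passing). Of the 8 tested, 3 fell and 5 did not pass. Tex101 had the largest fall (means of 129.3 and 74.6 FPKM), while Dnd1 (0.09), Nanos3 (0.21) and Piwil2 (0.03) were above 0 and did not pass. These germ cell genes other than Ddx4 were picked after their values were seen. Sums were higher in Ppp6r3 cKO for markers of undifferentiated spermatogonia (67.8 to 70.05 FPKM against 83.4 to 89.5 FPKM), and 4 of 11 rose, among them Zbtb16 (0.50).

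The 7 genes of differentiating spermatogonia summed to 207.4 to 209.3 FPKM and 227.1 to 239.0 FPKM, 5 rose, and Kit was at 0.07 (not passing). Sertoli sums overlapped (1724 to 1762 FPKM and 1614 to 1768 FPKM), with Sox9 at 0.02, and most of each sum was Clu (means of 1156 and 1081 FPKM). Of the 10 Sertoli genes 5 passed, in both directions: Amh (0.36), Kitl (0.30) and Gata4 (0.23) rose, and Gata1 (-0.47) and Rhox5 (-0.51) fell. Sums were higher in Ppp6r3 cKO for the 7 endothelial genes (34.2 to 37.9 FPKM against 54.7 to 58.1 FPKM), the 7 macrophage genes (116.4 to 122.9 FPKM against 152.8 to 166.9 FPKM), the 6 stromal genes (335.8 to 340.3 FPKM against 399.7 to 419.0 FPKM) and the 6 Leydig genes (173.8 to 181.3 FPKM against 193.4 to 196.2 FPKM). In those lists 5 endothelial, 3 macrophage and 4 stromal genes rose, against 7.65% of all genes tested. Of the Leydig genes only Hsd3b1 passed (means of 103.3 and 122.7 FPKM). Cyp17a1 (-0.175) and Insl3 (-0.10) did not pass, and had every Ppp6r3 cKO value under the wild-type range. These Sertoli and Leydig genes other than Sox9 and Cyp11a1 were picked after their values were seen. Sums were lower for the 5 myoid genes (591.6 to 617.6 FPKM against 500.3 to 528.8 FPKM), where Acta2 fell (-0.25), and for the 4 erythroid genes (289.1 to 327.1 FPKM against 178.0 to 203.8 FPKM). No marker in these lists was at 0 in any library. The part of these shifts in the values of the kinetochore genes was not tested.

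**Figure D4:**
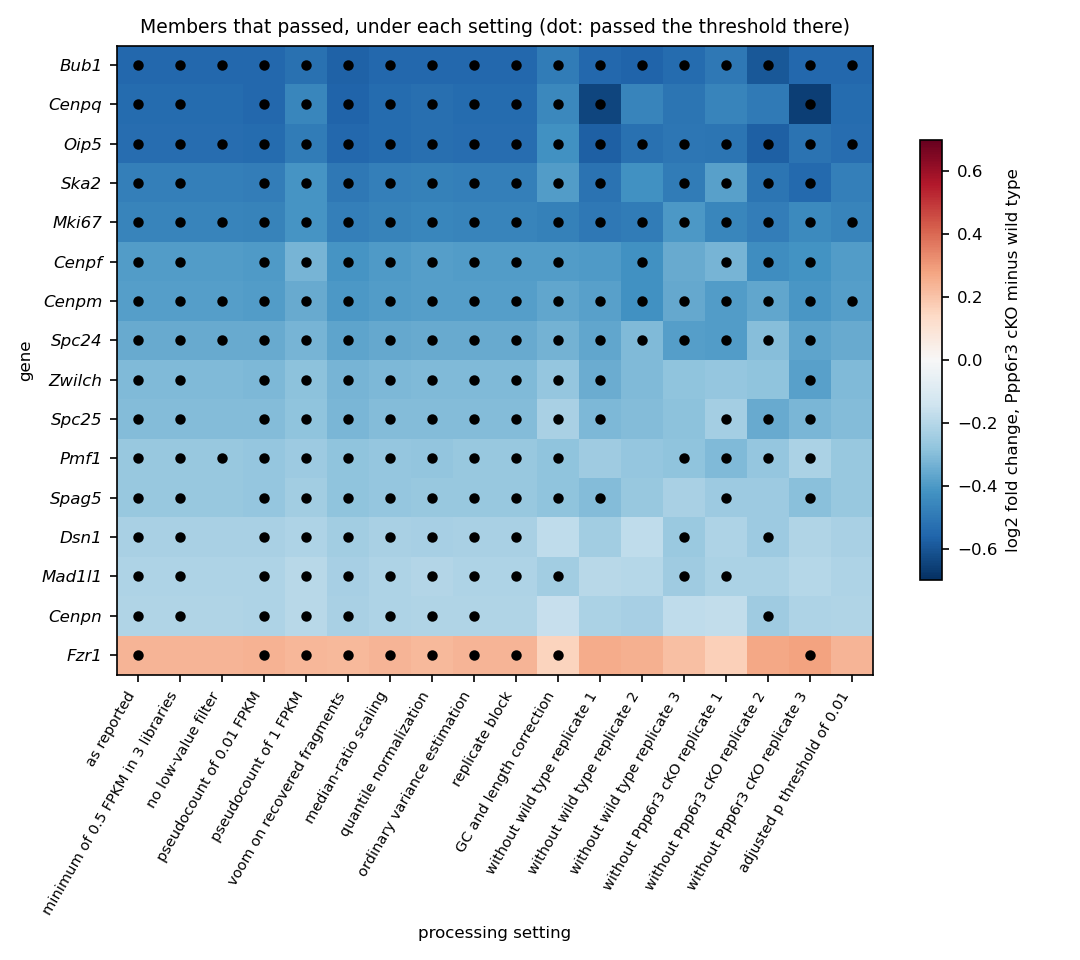
Log2 fold change (colour, Ppp6r3 cKO minus wild type) of the 16 genes that passed (rows) as reported and under 17 alternatives (columns), with a dot where the gene passed the threshold. Bub1, Oip5, Cenpm and Mki67 carry a dot in every column, and no gene changes colour between blue (lower) and red (higher). Most columns could not change the colour, because the groups of these genes did not overlap or the estimate was the same.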

How the data were processed

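Polyadenylated RNA of whole testis was sequenced from 3 wild-type and 3 Ppp6r3 cKO samples, with stranded KAPA libraries, per the labels' protocols. Alignment to mm10 was by HISAT2 2.0.5, per the design text. DESeq2 is also named in the authors' deposited processing notes, with no role given. The counting tool, strand setting and annotation are not given in the sources used here. Genes that overlap on opposite strands may thus share reads, and 13 of the 45 members share exon bases with another gene.

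The authors deposited FPKM values, although the table's name speaks of counts. Multiplied by GENCODE M21 exon length, 97.0% of the 32589 genes above 0 gave whole fragments (tolerance 0.01), and the other 964 did so with another length. Depth is therefore inferred. Tested genes had 10 or more inferred fragments in 3 or more libraries. The test was limma 3.58.1 (R 4.3.3) on log2(FPKM + 0.1), with trended, robust variance and the deposited scaling (median-ratio size factors of 1.0006 to 1.0048). Intervals are limma's 95% intervals.

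The members, the other lists and the rule for further names (passing genes of the related list, Aurkb, Plk1, Sgo2a, Meikin, the replication genes that changed most and set markers) were chosen with earlier results of these data known. The ratio pairs and the printed promoters were chosen after their values were seen. The planned protein motif description was not made. The fit was tested on simulated data whose changes were all larger than those of the members, so that test does not cover calls of their size. Same-numbered libraries did not deviate together (correlations of 0.016, -0.007 and -0.007), so the numbers were not taken as pairs. Python 3.11.15, numpy 2.4.6, pandas 2.3.3, scipy 1.17.1 and matplotlib 3.10.9 were used. Alternatives changed the filter, pseudocount, model, scaling, variance, block, GC and length, threshold and libraries.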

Additional observations from a re-analysis of the deposited data

How the results depend on the processing

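No kinetochore or checkpoint gene that passed changed direction under any of the 17 alternatives, but this was largely fixed in advance. With groups that did not overlap, leaving out a library or changing the pseudocount could not turn the sign. The filter, variance, block and threshold alternatives left the estimates unchanged. Only the remaining alternatives could have turned a sign. Over all genes, 740 rose and 768 fell with no low-value filter, 2142 fell with voom, and 418 rose and 471 fell at a threshold of 0.01. Leaving out 1 library gave 619 to 1144 that rose and 646 to 1313 that fell. Of the 45, 6 fell with no low-value filter and 4 at the threshold of 0.01, and 0 rose under either or with a minimum of 0.5 FPKM. Without 1 library 6 to 13 fell, 0 to 3 rose and the median was -0.169 to -0.105. The median was -0.078 after the GC and length correction. Of the 52 further genes, 1 fell with no low-value filter and 8 with voom, 1 fell and 0 rose at the threshold of 0.01, and without 1 library 1 to 5 fell and 1 to 2 rose. For the 25 DNA replication genes, alternatives chosen after seeing the data gave 3 that fell with no low-value filter, 2 that fell and 0 that rose at the threshold of 0.01, and a median of -0.007 after the GC and length correction. Without 1 library 4 to 6 fell, 1 to 2 rose and the median was -0.059 to -0.025.

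Among the 45, changes of sign were limited to genes near 0 that did not pass. Without 1 library, Mad2l1 ranged from -0.057 to 0.014, Cenpc1 from -0.151 to 0.05, Cenpi from -0.169 to 0.047, Cenpu from -0.005 to 0.085, Cenpw from -0.07 to 0.004, Ndc80 from -0.087 to 0.007 and Mis12 from -0.025 to 0.024. The GC and length correction put Cenpw at 0.057 and Ska3 at 0.008, and voom put Mis12 at -0.009. The cause of these shifts was not tested. With the replicate block, 1092 genes rose and 1100 fell, and 14 of the 45 fell, Cenpn being lost. Each of the 45 rested on at least 92 fragments in every library, and Meikin on as few as 3.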
